A study of Homo sapiens with 2 samples.

Results

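Peaks in the 3′ untranslated regions (3′ UTRs) of protein-coding genes were taken from a list of RNA segments enriched with the protein RRN3. A peak was included when its midpoint lay in no coding sequence and no 5′ UTR of any transcript of GENCODE release 44, and in an exon part downstream of the coding sequence of any coding transcript of a protein-coding gene, on either strand. This held for 257 of 7793 peaks (3.30%, 95% Wilson interval 2.92–3.72%), which join into 150 separate sites once touching peaks are merged. The data are from SK-OV-3, an established human ovarian cancer cell line, stably expressing RRN3 with an N-terminal V5 tag from a lentiviral vector with the EF1α promoter. The cells grew in complete medium with 100 μM 4-thiouridine for 14 h and then received 0.2 J/cm2 of 365-nm UV light (PAR-CLIP). The V5-RRN3 IP group is 1 library of RNA recovered with an anti-V5 antibody, and the V5-RRN3 INPUT group is 1 library from a portion of the lysate set aside before that step. All values come from 1 list made from both libraries, with no untagged cells and no replicate, so intervals cover the number of peaks, sites or bases and nothing else.

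Transcription of ribosomal DNA starts once RRN3 has linked RNA polymerase I to the factors bound at the promoter. The 3′ UTR follows the stop codon of an mRNA and ends at the poly(A) tail, whose addition is directed by a hexamer, most often AATAAA or ATTAAA, shortly upstream of the cleavage site. It is also where many RNA-binding proteins and microRNAs act, and some 3′ UTRs carry genes of small RNAs. In PAR-CLIP, 4-thiouridine is built into RNA in place of uridine and crosslinks to bound protein under long-wave UV light.

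The sites are short. RBM25, GDF11, VCAN and LDB3 are shown because they have the 4 lowest p-values given by the authors among sites of at least 15 bases outside small RNA genes, and the others because they have several CpG dinucleotides. Shorter sites in HASPIN, PGPEP1 and RWDD2A, whose p-values are listed as 0, are not shown. Each is written 5′ to 3′ on the strand of the peaks (GRCh38), with CpG in capitals.
RBM25, chr14:73100428-73100442, plus strand: taactggcttggaaa
GDF11, chr12:55754128-55754145, minus strand, opposite to the gene: tctgctactcaaccactt
VCAN, chr5:83512464-83512479, plus strand: tcaactagcCGttgga
LDB3, chr10:86735904-86735921, plus strand: tcagtattctggctttgg
HEBP2, chr6:138414604-138414624, plus strand: cCGttacCGtcttcagggtcc
CUEDC1, chr17:57861501-57861516, minus strand: agcccCGCGtCGcatc
RAB40B, chr17:82655331-82655347, minus strand: tgcaCGggcCGccCGga
CUEDC1 and RAB40B were chosen after their values were seen.

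Sites of genes from the autophagy and microRNA machinery lists follow, with CpG again in capitals. Of the 4 autophagy genes with a 3′ UTR peak, VMP1 is shown through its microRNA, and DDIT4 is not shown, since its site is on the opposite strand and its sequence occurs 24 times in the genome. ATG2B moves lipids to the growing autophagosome, RAB33B is a Rab GTPase that binds ATG16L1, and DROSHA is the nuclease that cuts primary microRNA transcripts.
ATG2B, chr14:96283799-96283816, minus strand: aaCGttgtgtctcaaaaa
RAB33B, chr4:139474946-139474964, plus strand: tttttgtttaatcatcatg
DROSHA, chr5:31400665-31400683, minus strand: tgtttgagatttgagaggg

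Mature microRNAs encoded at 3′ UTR sites are given from RefSeq (GRCh38.p14), where MIR21, MIR197 and MIR2277 were matched by symbol. The seed, bases 2 to 8, is in capitals. No seed was shared among them.
hsa-miR-21-5p: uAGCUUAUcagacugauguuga
hsa-miR-197-5p: cGGGUAGAgagggcagugggagg
hsa-miR-197-3p: uUCACCACcuucuccacccagc
hsa-miR-2277-5p: aGCGCGGGcugagcgcugccaguc

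The list used here holds no peak on chromosomes 7, 8, 9, X and Y, so genes there were not analysed, and the counts of genes and list members hold for the other 19 chromosomes alone. The 257 peaks lay in the 3′ UTRs of 151 genes. That is 0.923% of the 16355 protein-coding genes with a 3′ UTR on the 19 chromosomes that have peaks, whereas 2648 of these genes (16.2%) held a peak anywhere in the gene body on their own strand. In 10 peaks the 3′ UTRs of 2 genes overlapped, and when each peak was given to 1 gene, 146 genes were left. Of these, 142 had 1 site and 4 had more: GNAI3, FAM172A, LDB3 and RWDD2A, each with 2. Those of RWDD2A are short and carry the limit given with their p-values. They lie almost side by side (chr6:83197343-83197354 and chr6:83197357-83197363) and count as 2 only because they do not touch. Sites lay on 17 chromosomes, and per Mb of canonical 3′ UTR there were 5.15 sites over the chromosomes with peaks, from 2.72 on chromosome 18 to 12 on chromosome 13 among those with sites. Chromosome 18 had 2 sites and chromosome 13 had 8. These densities count all 150 sites, of which 130 lie in the 3′ UTR of a canonical transcript.

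The genes with the most 3′ UTR peaks were led by hosts of small RNA genes. GNAI3, an inhibitory G protein alpha subunit, held 8 peaks, and VMP1, an endoplasmic reticulum protein needed to form autophagosomes, held 5. FAM172A held 5 peaks, PABPN1 4, and FSD2, LDB3 and RPL13A 3 each. PABPN1 is the nuclear poly(A)-binding protein, LDB3 a protein of the muscle Z-disc and RPL13A a protein of the large ribosomal subunit. The other 3 genes named by the rule for the most peaks, RBM25, GDF11 and VCAN, had 2 peaks each, with p-values listed as 0. HASPIN and RWDD2A also had 2 peaks with p-values listed as 0, and ties were broken by the highest fold enrichment.

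The median length was 11 bases for peaks (range 5 to 33) and 17 bases for sites (range 6 to 59). A site was a pair of peaks in 88 cases and a single peak in 55, while 4 sites held 3 peaks, 1 held 4 and 2 held 5. The members of a pair had almost the same p-value: of 84 pairs with both values above 0, 81 differed by less than 10 times. Their fold enrichments, the authors' ratio of immunoprecipitate to input, differed by a median of 0.553, and by more than 0.5 in 49 of 88 pairs. At the ATG2B site, for example, the p-values were 5.26e-49 and 5.87e-49 and the fold enrichments 3.32 and 3.88. The fold enrichment of the 257 peaks ran from 2.01 to 3.97 with a median of 2.96, and 71, 62, 60 and 64 peaks fell in the 4 equal steps from 2 to 4. In all other peaks the median was 3.00. How the authors scaled this ratio is not stated. Across the 257 peaks, which are not independent, its Spearman correlation with the rank of the p-value, lowest p highest, was -0.123. Because of its even spread and this weak relation to the p-value, the fold enrichment is given as deposited and is not read as a measure of how strongly a site was bound.

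**Figure D1:**
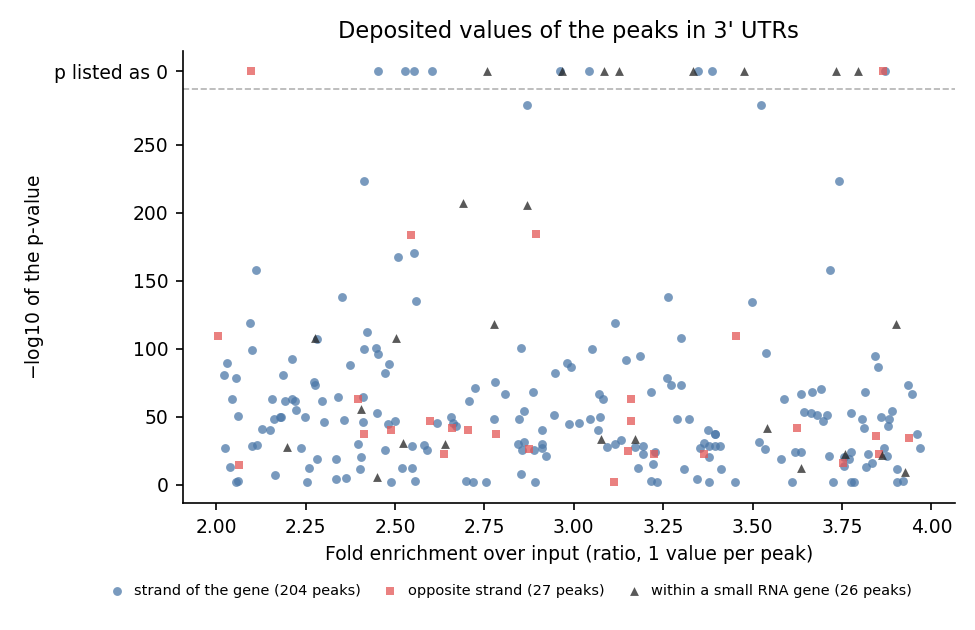
Fold enrichment over the input (x axis, ratio) and −log10 of the p-value (y axis), both as given by the authors, for each of the 257 peaks. Blue circles are 204 peaks on the strand of the gene, red squares 27 peaks on the opposite strand and black triangles 26 peaks within small RNA genes of either orientation; the 19 p-values listed as 0 stand above the dashed line.

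The p-value was listed as 0 for 19 of the 257 peaks and for 561 of the other 7536, and the medians were 2.9e-47 and 2.2e-47. In the plot of both deposited values, low and high fold enrichments occur among weak and strong p-values alike. Of the 10 sites with the lowest p-values, 9 had a value listed as 0. These were the sites of RBM25, a splicing factor, GDF11, a ligand of the TGF-β family, VMP1, FSD2, VCAN (versican, a proteoglycan of the extracellular matrix), PGPEP1, HASPIN (a kinase of histone H3), and 2 sites of RWDD2A. The last of the 10 was the LDB3 site, at 1.32e-279. The RWDD2A sites, 12 and 7 bases long, and the PGPEP1 site, 9 bases long, are below the 14 bases from which occurrences in the genome were counted, and whether the reads there came from RNA of these genes or from adapters of the library preparation was not tested. The RBM25 sequence occurs 9 times in the genome and the HASPIN sequence, 14 bases long, 25 times, whereas those of GDF11, VCAN and the printed LDB3 site occur once.

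At the other end, 20 peaks had p-values above 0.001, and each of these stood alone in its site. Their values formed 2 narrow groups, 14 between 0.019 and 0.02 and 6 between 0.0036 and 0.004. In the rest of the list, 263 and 134 of 474 such peaks lay in the same ranges. These sites were shorter, with a median of 13 bases against 18 for the other 130 sites. Among those with at least 14 bases, 2 of 7 occurred once in the genome, against 97 of 114 for the other sites (85.1%, 77.4–90.5%). Over all 3′ UTR sites of this length, 99 of 121 (81.8%) occurred once, near the 82.8% of sites in introns of protein-coding genes and the 84.9% in coding sequence. The sequence at SSPN was found 114 times, at TGOLN2 83 times, at USP4 58 times and at FOXM1 44 times, each of them 14 bases long.

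A site in SLC49A4 repeats a piece of a microRNA. It is a single peak with a fold enrichment of 3.45 and a p-value of 0.019, 208 bases before the transcript end, and was chosen after its values were seen. Its 14 bases occur 7 times in the genome, the site itself included. Among these places are MIR125B1 and MIR125B2, where the 14 bases are bases 8 to 21 of the mature microRNA. This microRNA follows the site with its seed in capitals.
SLC49A4, chr3:122880924-122880937, plus strand: gaccctaacttgtg
hsa-miR-125b-5p: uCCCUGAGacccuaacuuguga
No other 3′ UTR site of at least 14 bases matched a small RNA gene at another locus.

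Small RNA genes inside 3′ UTRs held 26 of the 257 peaks, in 8 sites of 7 genes. Their median p-value was 1.83e-108, against 1.41e-46 for the other 231 peaks, and 8 of them were listed as 0 against 11 of the others. These 8 were the 5 peaks at MIR21 and the 3 at SCARNA15, and peaks of 1 site are not independent. The share of peaks in small RNA genes over the whole list is not given here. MIR21 lies in the 3′ UTR of VMP1, at chr17:59841266-59841337, and all 5 of its peaks had a p-value of 0. They covered all 22 bases of miR-21-5p, the mature arm printed above, and 260 to 275 bases remained from their midpoints to the nearest transcript end. MIR197 (chr1:109598893-109598967) lies in the 3′ UTR of GNAI3 and had peaks on both arms. Peaks there covered 21 of 23 bases of miR-197-5p and all 22 bases of miR-197-3p. The lowest p-value at this gene was 3.87e-119 and the highest 9.6e-07. MIR2277 (chr5:93620696-93620788) lies in FAM172A, and its 3 peaks covered 22 of 24 bases of miR-2277-5p and none of miR-2277-3p.

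The remaining small RNA genes were of other kinds. SNORD32A, a box C/D small nucleolar RNA, lies in RPL13A and had 3 peaks over 25 bases. SNORD138, typed as a microRNA in GENCODE, lies in COX7C, a subunit of cytochrome c oxidase, and had 2 peaks over 59 bases, the longest site. SCARNA15, a small Cajal body RNA, is antisense to FSD2 and had 3 peaks whose p-values were all listed as 0. A transfer RNA gene for isoleucine, TRI-AAT4-1 in RefSeq, lies in the 3′ UTR of CTC1, a subunit of the CST telomere complex. It had 2 peaks over 23 bases, with p-values of 1.31e-207 and 2.98e-206. For RPL13A and COX7C, these positions are intron in the canonical transcript. Exons of long non-coding RNA genes were present at 6 sites, including that of SCARNA15.

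The strand was not used to select the peaks. Of the 257, 227 (88.3%, 83.8–91.7%) were on the strand of a gene whose 3′ UTR held them. The other 30 formed 17 sites in 17 genes, among them GDF11, FSD2, LRP6, DDIT4, PRPF38A, GALNT10, AKAP8L, ZNF571 and HDGFL3. At 16 of these 17 sites another gene runs along the strand of the peak, a protein-coding gene at 10 and only non-coding genes at 6. Introns of these genes count as well. How often any 3′ UTR has a gene on its opposite strand is not given here. The GDF11 site, for instance, lies within SARNP, the PRPF38A site within TUT4 and the LRP6 site within BCL2L14. The site without such a gene was that of DDIT4, an inhibitor of mTORC1, a single peak with a deposited p-value of 2.75e-15, whose sequence occurs 24 times in the genome. The median of the lowest p-value per site was 3.78e-41 for the 133 sites on the strand of the gene and 5.13e-38 for the 17 others.

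Of the 257 peaks, 218 (84.8%, 79.9–88.7%) lay in the 3′ UTR of the canonical transcript of their gene. Another 29 were in its introns and 10 beyond its ends, so that only another transcript gave them a 3′ UTR. RBM25 and VCAN, with p-values listed as 0, belong to the intronic ones, as do sites of CD44, QKI, F2R and LRP11. The CD44 site is a single peak of 6 bases with a deposited p-value of 0.00366, too short for its occurrences to be counted. The H2BC26 and RIMKLB sites lay beyond the canonical transcript. For 5 peaks, no transcript of the type protein_coding had a 3′ UTR there.

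The median distance from the peak to the nearest transcript end, in spliced bases, was 726 (95% interval of the median 579–1021), with quartiles at 226 and 2007 and a maximum of 11054. It was 718 (567–984) for peaks on the strand of the gene and 1597.5 (133–2003) for the 30 others. Among the sites nearest to an end were those of HAS3 (a hyaluronan synthase) at 2 bases, ZNF571, on the opposite strand, and PABPN1 at 3, and SSPN at 4. That of PABPN1 was near the end of a shorter transcript only, with up to 865 bases to the farthest end. The 5 farthest were ZNF26 at 11045 bases, HDGFL3, on the opposite strand, at 8576, KLF12, a transcription factor, at 7995, HEBP2, a heme-binding protein, at 7577 and TNR, the matrix protein tenascin-R, at 6937. All 5 of these lie in 3′ UTRs of canonical transcripts. The HDGFL3 site is a single peak with a deposited p-value of 0.0191, and its sequence occurs 36 times in the genome.

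On the canonical transcript, 115 sites on the strand of the gene could be placed along the 3′ UTR, each at the median over its peaks and not at the peak nearest to an end, which was used for the named sites. Their median distance was 1141 bases (816.5–1586) to the end and 1404.5 (1091–1752) from the coding sequence, stop codon included. Within 50 bases of the end lay 5 sites (4.35%, 1.87–9.78%), where 2.79% of all canonical 3′ UTR bases are. From 50 to 200 bases there were 11 sites (9.57%, 5.43–16.3%) against 7.81% of bases, and from 200 to 1000 bases 38 sites (33.0%, 25.1–42.1%) against 29.95%. From 1000 to 3000 bases there were 41 sites (35.7%, 27.5–44.7%) against 36.4%, and farther away 20 (17.4%, 11.5–25.3%) against 23%. Each of these intervals includes the share of bases. Along the 3′ UTR, the 5 equal parts from the coding sequence to the end held 21, 25, 18, 22 and 29 sites.

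The 3′ UTRs with such a site were long, with a median of 2961 bases (2463–3626) over 111 genes against 1073.5 over all 16320 canonical 3′ UTRs. Counted by bases instead of by genes, the median base of all canonical 3′ UTRs lies in one of 3289 bases. The part of length in where sites lie was not tested.

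AATAAA or ATTAAA, as exact letters on the strand of the gene, stood within 50 bases of 29 of 133 sites on that strand (21.8%, 15.6–29.6%). In windows of the same length 1 kb to each side it was present in 33 of 266 (12.4%, 8.97–16.9%). The intervals of both shares overlap. Windows 1 kb away, here and below, were set by genomic position, and some lie outside the 3′ UTR. Of the 13 sites whose nearest peak was within 50 bases of an end of any transcript, 9 had the hexamer, and of the 120 farther away, 20 (16.7%, 11.1–24.3%). For comparison, 78.9% of canonical transcripts have it in their last 50 bases. That window is shorter than the one around a site and ends at the canonical end, so the shares are not like for like. Read on the strand of the site, it stood near 22.7% of all 3′ UTR sites, 12.8% of those in introns of protein-coding genes, 4.43% in coding sequence and 4.58% in 5′ UTRs. The 6 sites that contain the hexamer itself include 2 close to a transcript end, shown with the hexamer in capitals.
DENND5B, chr12:31382228-31382250, minus strand: tacaAATAAAactgtgggattga
CPSF3, chr2:9473071-9473089, plus strand: taaAATAAAatgcattcgt
CPSF3 is the nuclease that cuts pre-mRNA before the poly(A) tail is added, and its site was 7 bases from the nearest end, with a lowest p-value of 8.18e-21. The DENND5B site was 9 bases from the end, with a lowest p-value of 3.71e-89. The other 4 were in FHAD1, HDGFL3, MOCOS and KANK2, between 264 and 8576 bases from the end. The HDGFL3 site, the farthest of these, is on the strand opposite to the gene, and its hexamer is read on the strand of the site.

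Other short elements were counted in the same way within 50 bases of the 133 sites. ATTTA, the core of AU-rich elements, was near 18 (13.5%, 8.74–20.4%), against 17.7% of windows 1 kb away, and AAAAAAA near 11 (8.27%, 4.68–14.2%) against 4.89%. AGAAAAA was near 5 sites (3.76%, 1.62–8.50%) against 2.26%, and TTTTTTT near 4 (3.01%, 1.18–7.48%) against 7.52%. TGTANATA, the element bound by Pumilio proteins, with N for any base, was near 2 sites (1.5%) and near 1.5% of windows. Each interval at the sites overlaps that of the windows.

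Thymine, read as uridine in RNA, made up 27.2% (25.5–29.0%) of the bases of the 150 sites. In the 20 bases on each side it made up 28.4%, and in windows 1 kb away 28.4% as well. The share was 28.9% in sites of introns of protein-coding genes, 21.6% in coding sequence and 20.6% in 5′ UTRs. The first base of the site was T in 48 of 150 sites (32.0%) and the last in 47 (31.3%), and 7 sites had no T at all.

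The dinucleotide CpG, which is rare in most of the human genome, was more frequent in the sites than beside them. The measure used, observed over expected CpG, sets the frequency of CpG against that given by the C and G content if bases followed each other independently, and it was 0.871 (0.727–1.04) in the sites. It was 0.421 (0.354–0.501) in the next 20 bases on each side, 0.322 (0.263–0.395) from 20 to 40 bases away and 0.299 in windows 1 kb away. The values farther out, up to 120 bases, lay between 0.304 and 0.407, none of whose intervals reaches that of the sites. At least 1 CpG was present in 85 of 150 sites (56.7%, 48.7–64.3%), against 57 of 300 windows of the same length that begin 20 bases away (19%, 15–23.8%). The most in a site was 4, at the transfer RNA gene in CTC1.

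**Figure D2:**
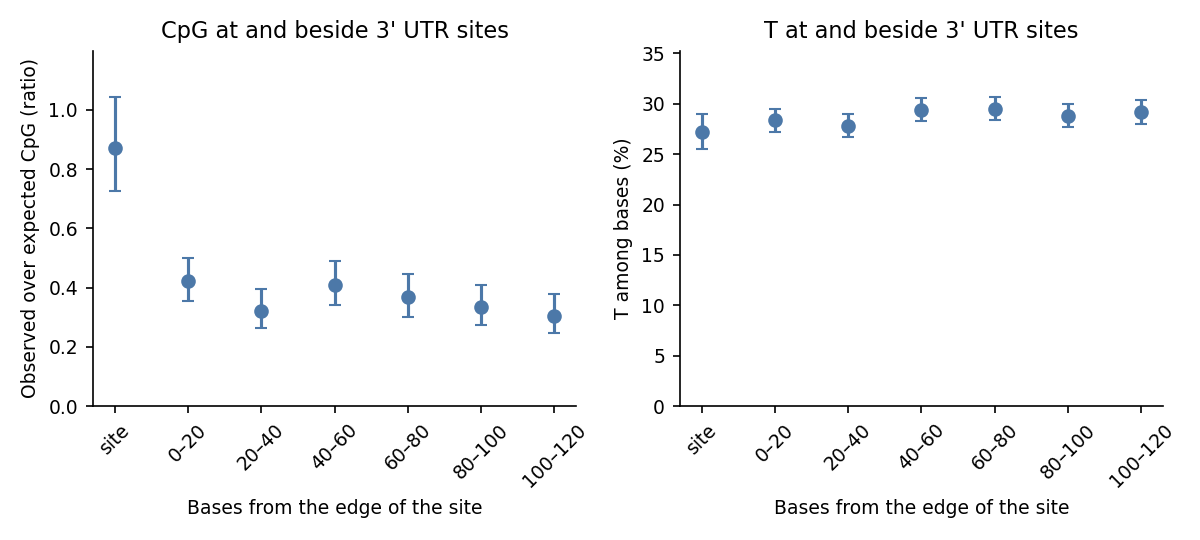
Observed over expected CpG (left, ratio) and share of T (right, percent) in the 150 sites and in successive steps of 20 bases on both sides, with 95% Wilson intervals over dinucleotides or bases. CpG is at 0.871 in the sites and between 0.304 and 0.421 beside them, while T stays between 27.2% and 29.5%.

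The ratio in the sites was 0.870 (0.717–1.05) on the strand of the gene, 0.890 (0.524–1.49) on the opposite strand and 0.890 (0.736–1.07) outside small RNA genes. For sites with p-values above 0.001 it was 0.697 (0.369–1.30), from 9 CpG. In introns, coding sequence and 5′ UTRs the ratio was also higher in sites than in flanks. Introns of protein-coding genes had 0.802 (0.767–0.838) in sites and 0.304 in flanks. Coding sequence had 0.861 (0.788–0.940) and 0.588, and without POLQ and SUMO3, which hold many of its peaks, 0.926 (0.843–1.02) and 0.597. In 5′ UTRs, which often lie in CpG islands, the flanks were at 0.866 and the sites at 1.01 (0.901–1.13).

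**Figure D3:**
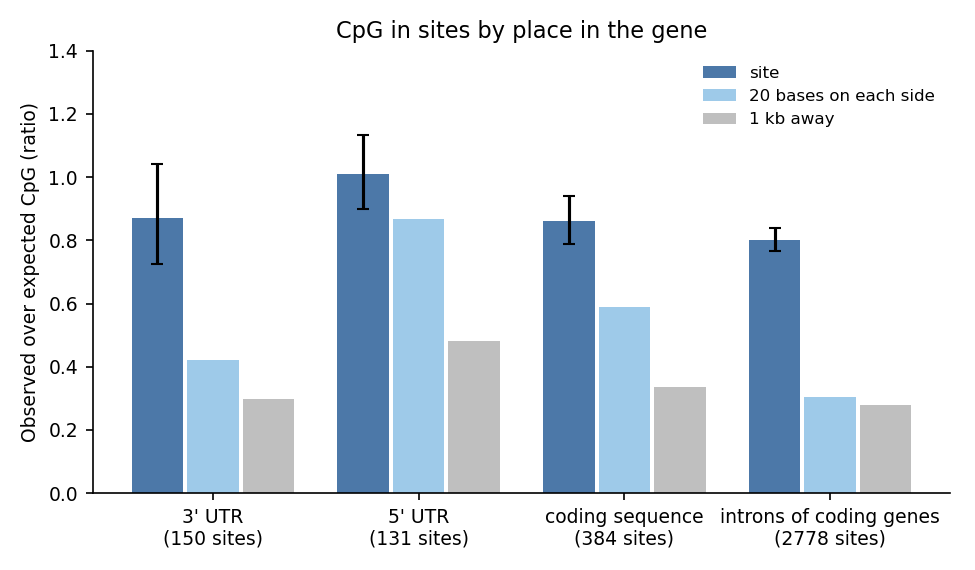
Observed over expected CpG (y axis, ratio) in sites (dark blue, with 95% Wilson intervals), in 20 bases on each side (light blue) and in windows 1 kb away (grey), for 4 places in protein-coding genes. In 3′ UTRs the ratios are 0.871, 0.421 and 0.299, and in introns 0.802, 0.304 and 0.278.

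The lists of genes are given as counts on the chromosomes with peaks, which leaves 70 of 84 autophagy genes for example, beside the 0.923% of all genes with a 3′ UTR peak and the 16.2% with a peak in the gene body. Among the 70 autophagy genes, a list that overlaps with genes the study picked from these peaks, 4 had a 3′ UTR peak and 23 a peak in the gene body. The 4 were ATG2B, 4607 bases from the transcript end, RAB33B at 912 bases, VMP1, at MIR21, and DDIT4, on the opposite strand. The ATG2B and RAB33B sites, printed above, each consist of 2 abutting peaks on the strand of the gene, with lowest p-values of 5.26e-49 and 1.84e-50. Of 22 cleavage and polyadenylation genes, 2 had a 3′ UTR peak, CPSF3 and PABPN1, and 8 a peak in the gene body. The PABPN1 site lies in a purine-rich stretch of 49 bases, 4 peaks long, with a lowest p-value of 4.98e-14, in a 3′ UTR shared with the read-through gene BCL2L2-PABPN1.

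Of 14 microRNA machinery genes, DROSHA had a 3′ UTR site, 173 bases from the end with a lowest p-value of 1.38e-95, and 5 had a peak in the gene body. Of 73 ribosomal protein genes, 1 had a 3′ UTR peak, RPL13A at SNORD32A, and 17 a peak in the gene body. Of 73 replication-dependent histone genes, 1 had a 3′ UTR peak, H2BC26, and 2 a peak in the gene body. The H2BC26 site, 4343 bases from the end, lies in a longer transcript that runs past the canonical one, with a lowest p-value of 6.85e-55. None of 14 genes in the list for proteins that bind AU-rich elements and none of 16 RNA polymerase I genes had a 3′ UTR peak. In the first list, SAMD4A and SAMD4B had a peak in the gene body, and both are Smaug proteins, which bind stem-loops and not AU-rich elements. In the second, POLR1B and POLR1C had a peak in the gene body. Of 12 epithelial and ovarian markers, none had a 3′ UTR peak, while CDH1, ERBB2 and PAX8 had a peak in the gene body. Of 7 markers of blood, fibroblast and nerve cells, RBFOX3 alone had a peak in the gene body and none had a peak in the 3′ UTR. A peak list gives no expression level, so the presence of a peak is all that is counted here.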

How the data were processed

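V5-RRN3 IP and V5-RRN3 INPUT comprised 1 library each, and the authors deposited 1 peak list for both. Per the submitters' processing notes the build is GRCh38, and aligner, peak caller and threshold are not given in the sources used here. The deposited fold enrichment is a ratio per peak, with scaling not stated. The deposited p-value comes from a test that is not stated, and the false discovery rate is 1 in every row. The deposited score is also 1 throughout. Other deposited columns are positions and lengths. Read depth was not analysed here. Midpoints, counted from 1, were placed on GENCODE release 44, with the stop codon counted in the 3′ UTR. Touching peaks of 1 strand were joined into sites. Occurrences were exact matches to either strand of the 22 autosomes and the sex chromosomes. The canonical transcript is the annotation's. Transfer RNA genes and microRNA sequences came from RefSeq (GRCh38.p14).

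The members and lists were chosen with earlier results of these data known. Named were the 10 genes with the most peaks, the genes of the 10 sites with the lowest p-value (ties in both by p-value, then fold enrichment), of the 5 sites nearest to and the 5 farthest from a transcript end, genes of the lists with a 3′ UTR peak, non-protein-coding genes at the sites, and genes with peaks on the opposite strand. The site of 1 of these genes is not reported here. With 1 library per group no test was made. Intervals (95%) are Wilson intervals, or order statistics for medians. Bases of 1 site and touching peaks are not independent. Placement, distance and composition were also tried on simulated data, whose outcome is not reported here and from which no value is taken. The tools were pysam 0.24.0, pandas 2.3.3 and numpy 2.4.6 for the tables, scipy 1.17.1 for intervals and matplotlib 3.10.9 for plots, under Python 3.11.15.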

Additional observations from a re-analysis of the deposited data

How the results depend on the processing

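Of 40 alternative values of 7 results, 31 stayed within 1.5 times a count or within the 95% interval of a share, ratio or median. The share of peaks on the strand of the gene (88.1% to 90.5% over 6 alternatives) and the share of T (26.6% to 28.6% over 5) did so throughout. Joining touching peaks before placement gave 150 in place of 257, and the 50% of all peaks with the lowest p-values gave 126 peaks in 64 genes, since both take fewer items. The median distance to the end, 726 bases, was 1059 to the farthest end and 1246.5 to the end of the canonical transcript, the first longer by construction, while the cause of the second was not tested. With 10 bases added on each side, observed over expected CpG was 0.630, since flanking bases then count. The share of sites with AATAAA or ATTAAA was 31.6% within 100 bases, 32.3% on both strands and 13.5% for AATAAA alone, as wider or narrower searches give. Leaving out peaks in small RNA genes, and transcripts with an incomplete 3′ end for the distance, was chosen after seeing the data and kept all 6 values within those limits. No paired analysis was possible because each group has 1 library. Read numbers per peak were not examined, so what depth limits is unknown.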
